A study of Macrobrachium rosenbergii with 32 samples.

Results

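The alleles described here are deletions longer than 16 nt at the Mr-cofilin cut-site of the giant freshwater prawn Macrobrachium rosenbergii. An allele was taken when the table of the 20-nt window gave more than 16 deleted and 0 inserted bases for it, so its length and the absence of an insertion are what chose it and are not findings. In the positive controls of 12 experiments (1 to 3 and 8 to 16) this rule found 833 of 7280 alleles, with 3747 of 377048 aligned reads. Of these, 832 alleles with 3746 reads came from 11 libraries. Experiment 8 held the remaining allele, with 1 read, and is reported apart. The positive controls of experiments 4 to 7 held 0 such alleles and enter only as a comparison at the threshold.

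Each experiment used wild-type cells in primary culture, taken from the embryos of a single female. The positive control received Cas9 loaded with the sgRNA against Mr-cofilin by nucleofection, and the negative control was nucleofected without sgRNA. Cells of both controls were lysed for DNA after the same incubation, and the Mr-cofilin region was amplified by PCR, sequenced and passed to CRISPResso2, which aligns amplicon reads and sorts them into alleles. A library holds the DNA of a whole culture, so the alleles are those of many cells and not of clones. The 11 positive controls held 353587 aligned reads (17505 to 42422 per library) and the 11 negative controls of the same experiments held 367201.

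Cas9 cuts both strands of the DNA 3 nt from the PAM, the short motif beside the target that the enzyme requires. Ligation of the ends without a template often leaves small insertions and deletions. Longer deletions arise when the ends are resected first, and resected ends can be joined at microhomologies, short stretches of the same bases on both sides of the break, of which 1 copy and the bases in between are lost. Mr-cofilin encodes an actin-binding protein that severs and depolymerises filaments.

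The sgRNA target lies on scaffold 867 of the study's assembly, from 4182487 to 4182506 of the plus strand, and the gene is on the minus strand. None of the 4 exons of the manual gene model overlaps it. It stands 79 nt beyond the last exon, within the 3′ UTR that the Maker prediction gives the gene. The sgRNA target and 30 nt around the cut-site are shown because every position below is counted from that cut. The first line has the PAM in capitals, and the second is in the orientation of the gene, with the case changing at the cut-site.
sgRNA target: catatgactagctggccacaGGG
site: tctctaccgccctgtGGCCAGCTAGTCATA

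Position 1 is the first base right of the cut-site and -1 the first base left of it, read along the gene. In this orientation the PAM occupies positions -4 to -6, and 17 of the 20 bases of the protospacer lie right of the cut-site. The tables show 20 columns on each side. Where a single gap ran past the last column, its hidden end was placed from the number of deleted bases and the reference sequence. Among the 134 alleles with both ends inside the columns, the deleted bases equalled the gap in 134. The places of hidden ends could not be checked in this way. Deletions with the same gap and length were counted as 1 deletion, which gave 339 deletions in the 11 libraries.

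The 8 most recurrent deletions are shown as the 20 bases left after the joining, 10 from each side, because their junctions differ in the bases the ends share. Capitals mark the microhomology, the bases over which the gap could slide without changing the product.
1 to 18 (18 nt): accgcccTGTGGgccacaat
1 to 20 (20 nt): accgccctgtGccacaatca
1 to 19 (19 nt): accgccctgtGGCCAcaatc
2 to 22 (21 nt): ccgccctgtgcacaatcatg
3 to 19 (17 nt): cgccctgtgGggccacaatc
2 to 23 (22 nt): ccgccctgtgacaatcatgc
1 to 22 (22 nt): accgccctgtcacaatcatg
1 to 21 (21 nt): accgccctgtccacaatcat

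Long deletions made up about 1% of the reads of the 11 positive controls, which were kept because they held them. Experiment 11 had the lowest share of aligned reads, with 160 reads or 0.603% (95% Wilson interval 0.516 to 0.703). The median was 0.862%, in experiment 16. The highest share was 2.42% (2.27 to 2.58), from 902 reads in experiment 3. Experiment 3 stood above the other 10 libraries, of which experiment 13 was the nearest at 1.19%. The Wilson interval of experiment 3 did not overlap that of any other library. These intervals cover counting error only, since PCR reads without molecular identifiers are not independent molecules.

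In the negative controls, 6 reads in 3 of 11 libraries passed the same rule. Experiment 12 held 4 of them (18, 20, 43 and 77 nt), and experiments 2 and 15 held 1 each (33 and 18 nt). The highest share was 0.0139%, in experiment 12, and 8 libraries had 0 reads, which allows a share of at most 0.0152% in the smallest. Among the 5 deletions seen, 4 were also found in the positive controls. For that of 77 nt the match rests on length alone, because its gap covers all columns and neither end is visible. The most frequent of the 5 was that from 1 to 18, with 2 reads. The negative control of experiment 15, which held 1 of these, also had 535 reads with an indel of any length (1.67% of its aligned reads). Experiment 10 was the next highest of the 11 negative controls in this, at 0.0682%. The source of the indel reads in experiment 15 was not tested.

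The mean share was 1.01% ± 0.505 (SD, n = 11) in the positive and 0.00188% ± 0.00420 (SD, n = 11) in the negative controls, and the groups did not overlap. The difference was 1.01 percentage points (two-sided permutation test, p = 4e-05). With the experiment as a replicate block, pairing the controls of 1 female, the exact sign-flip p was 0.000977. Both p-values are conditional on the choice of libraries, because experiments 4 to 7 were left out for holding 0 long deletions and experiment 8 was set apart with 1 read. In all 16 experiments, a comparison added after seeing the data, the mean share was 0.698% ± 0.637 (SD, n = 16) in the positive and 0.00129% ± 0.00355 in the negative controls. The positive control was higher in 12 experiments and both were at 0 in the other 4, which are experiments 4 to 7. Their 0 reads are taken as measured shares here, although missing deletions cannot be told apart from missing listings. The difference was then 0.697 points (permutation test, p = 6e-05; with the replicate block, exact sign-flip p = 0.000488).

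**Figure D1:**
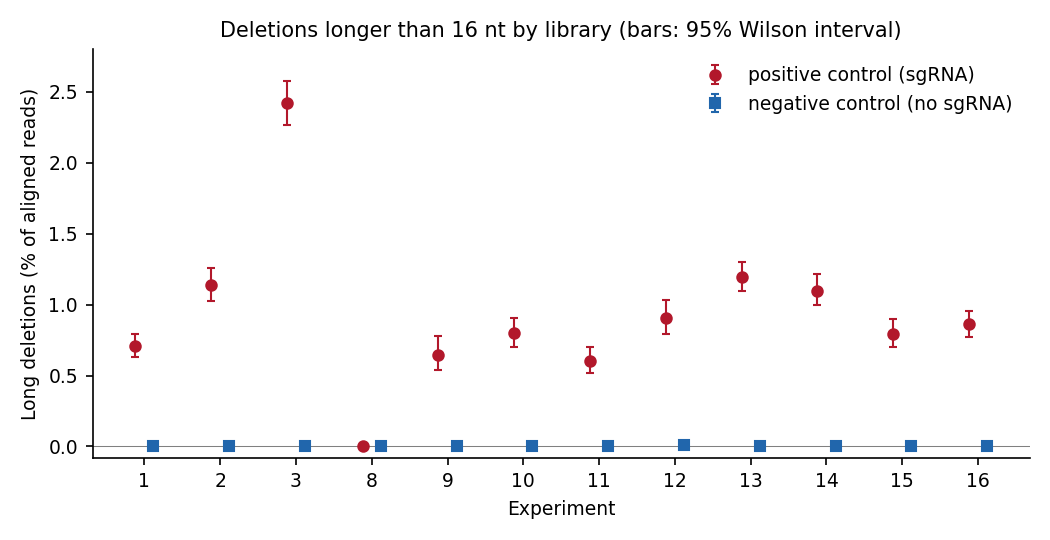
Share of aligned reads with a deletion longer than 16 nt (y axis, percent) in the positive control (circles) and negative control (squares) of each experiment, with 95% Wilson intervals. The 11 positive controls lie between 0.603% and 2.42%, whereas experiment 8 lies with the negative controls, all of which are at or below 0.0139%. Experiment 8 also has 0 reads of 6, 8 and 12 to 16 nt, so its low share cannot be told apart from missing listings.

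As a share of the reads with an insertion or deletion, long deletions made up 2.49% ± 0.997 (SD, n = 11). Experiment 9 had the lowest share at 1.60%, experiment 11 the median at 2.12% and experiment 3 the highest at 4.98%. The libraries differed widely in editing, with 27.0% (experiment 10) to 54.9% (experiment 13) of reads carrying an indel. The long share of indel reads did not follow this level across the 11 libraries (Pearson r = -0.0645, permutation p = 0.866; Spearman rho = -0.182, p = 0.595). With experiments 10 and 11 left out, whose indel levels were farthest from the median, r was -0.0546. Without experiment 3, r was -0.510 (p = 0.136). The median length of the long deletions gave r = 0.0779 (p = 0.847) and rho = 0.443 (p = 0.174) with the same level. Over the 4 statistics computed, the lowest adjusted p was 0.694.

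Most long deletions were close to the threshold in length. Deletions of 17 to 22 nt took up 66.04% of the long deletion reads with 54 of the 339 deletions, and the pooled median was 20 nt. Those of 23 to 30 nt took up 11.1%, those of 31 to 40 nt 7.61%, those of 41 to 60 nt 8.68% and those above 60 nt 6.57%. Each of these classes was found in 11 of 11 libraries. Reads per deletion fell from 45.8 at 17 to 22 nt to 3.57 at 41 to 60 nt (91 deletions) and 2.62 above 60 nt (94 deletions). Deletions per length fell as well, from 9 to 4.55 and 2.94.

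Length 18 nt stood out with 1200 reads, against 211 reads of 17 nt and 256 of 19 nt. From 20 to 22 nt the reads numbered 300, 288 and 219, and from 23 nt onward no length reached 100 reads. All 24 lengths from 17 to 40 nt were present. Just outside the rule, 16 nt had 594 reads and 15 nt had 185, so the threshold fell between 2 frequent lengths. All 4 lengths from 15 to 18 nt were found in 11 of 11 libraries.

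Library medians lay between 19 and 25 nt. Experiment 1 had the highest median, 25 nt, and 30.7% of its long deletion reads were over 40 nt. Experiments 13, 3 and 16 followed with 22.9%, 18.1% and 17.4%. Experiment 2 had the lowest share over 40 nt, 4.45%. The longest deletion, of 92 nt, leaves 153 nt of the 245-nt amplicon, and the reads were 150 nt long. Whether products shorter than a read were kept was not tested. Deletions that remove a primer site are not amplified, so the longest length and the shares of the longest classes hold only within this amplicon.

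**Figure D2:**
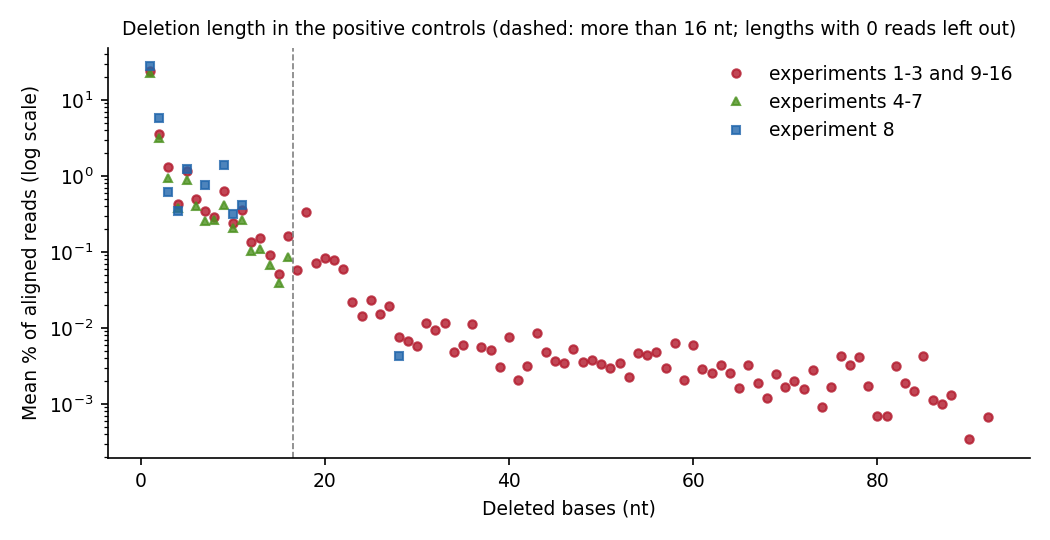
Mean percent of aligned reads (y axis, log scale) by number of deleted bases (x axis, nt) in the positive controls of experiments 1 to 3 and 9 to 16, of experiments 4 to 7 and of experiment 8. Experiment 8 has no point at 6 and 8 nt and none above 11 nt except 1 read of 28 nt, and experiments 4 to 7 end at 16 nt.

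Experiments 4 to 7 and experiment 8 lacked the long side of this distribution. In experiments 4 to 7 there were 1288 reads of 9 to 11 nt and 639 of 12 to 16 nt, and then 0 above 16 nt. In each of these libraries the longest listed deletion was 16 nt. Whether longer ones were left out of the listing is not given in the sources used here. Only if they were listed do the aligned reads allow a share of at most 0.0148% in the smallest library, below the 0.603% of the lowest of the 11. Missing deletions cannot be told apart from missing listings here. The product with positions 1 to 16 deleted had 126 of their 136 reads of 16 nt and 526 of the 594 such reads in the 11 libraries. In the 11 libraries, however, the 18-nt length was about 2 times as frequent as 16 nt. The tables of these 4 experiments list the alleles in reverse orientation, and the part of this in the difference was not tested.

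In experiment 8, 496 reads of 9 to 11 nt were followed by 0 reads of 12 to 16 nt. Lengths of 6 and 8 nt also had 0 reads there, although 5, 7 and 9 nt had 291, 179 and 326, and each length up to 16 nt was present in experiments 4 to 7. Whether this library was filtered or processed in another way is not given in the sources used here, so its missing lengths cannot be told apart from missing listings. Its only long deletion was 1 read of 28 nt, in 2 gaps right of the cut-site, or 0.00426% of 23461 aligned reads (0.000752 to 0.0241). None of the 8 most recurrent deletions was found in it, although 11748 of its reads carried an indel. The share in experiment 8 therefore differed from that of each of the 11 libraries by more than counting error. Being 1 library, it was not tested as a group.

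The long deletions ran away from the PAM. Of the 3746 reads in the 11 libraries, 3366 (89.9%, in 164 deletions) had a gap only right of the cut-site. A further 341 reads (9.10%) had a gap over both sides, and 39 reads (1.04%) had one only left of it. Spread over distinct deletions the sides were closer, because the 154 deletions over both sides and the 21 on the left had few reads each.

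The mean share of right-only reads was 90.05% ± 8.73 (SD, n = 11). Right minus left was 89.0 percentage points (SD 9.59) and positive in 11 of 11 libraries (exact two-sided sign-flip test, p = 0.000977). Experiment 1 was the exception in size, with 65.4% of reads on the right, 31.4% over both sides and 3.18% on the left. The other 10 libraries had between 86.7% and 95.03% on the right. A gap within repeated bases can be drawn at several places. With every gap moved as far left as its product allows, right minus left was 52.5 points (p = 0.000977), since the deletion from 1 to 18 then starts at -3.

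**Figure D3:**
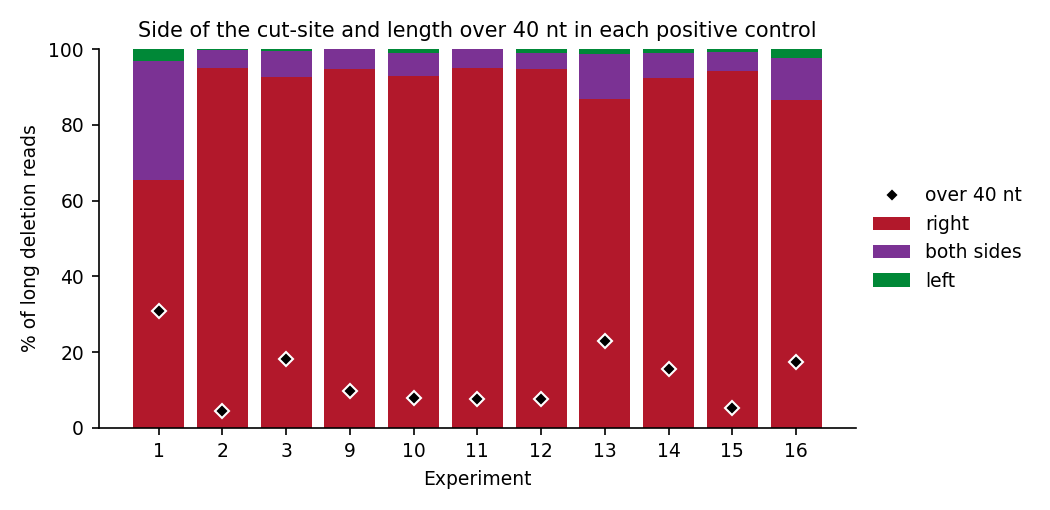
Long deletion reads of each of the 11 positive controls by side of the cut-site (stacked bars, percent of long deletion reads) and the percent over 40 nt (diamonds). Experiment 1 has the largest part over both sides (31.4%) and over 40 nt (30.7%).

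As the tables draw the gaps, side and length went together. Among reads of 17 to 22 nt, 96.1% were right-only, against 86.4% of those of 23 to 40 nt and 67.1% of those over 40 nt. The left side held 9, 4 and 26 reads of these classes. These shares follow the drawing of the gap. The deletion from 1 to 18 held 1170 of the 2474 reads of 17 to 22 nt, and at its leftmost place it runs over both sides. Whether the order of the classes holds at that placement was not tested. Short deletions of 3 to 16 nt lay right of the cut-site in 95.1% ± 2.79 of reads (SD, n = 11; 87.0% to 97.6%), over both sides in 4.11% ± 2.58 and on the left in 0.752% ± 0.278. The side of long and short deletions overlapped between libraries, and their difference was not tested.

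In 2643 of 3690 placed reads (71.6%) the gap could be drawn to touch the cut-site. As the tables draw the gaps, the first deleted base was position 1 in 2315 of the 3746 reads (61.8%, 69 of 339 deletions), position 2 in 753 (20.1%) and position 3 in 205 (5.47%). Positions 4 and 5 had 44 and 29 reads, and -1 and -2 had 29 and 10. The share of placed reads that start at position 1 was 62.7% as drawn, 26.7% with every gap at its leftmost place and 13.1% at its rightmost, since several gaps, that from 1 to 18 among them, can slide. All 39 left-only reads ended at -1, so here also the gap touched the cut. As drawn, 75.8% of the placed reads of 17 to 22 nt started at position 1, against 37.1% of those of 23 to 40 nt and 35.7% of those over 40 nt.

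The other end was visible in fewer reads. Both ends lay within the 40 columns in 1698 reads (45.3%), only the left end in 1851 (49.4%), only the right end in 141 (3.76%) and neither in 40 (1.07%, 43 to 88 nt). With the hidden ends placed, position 18 was the most frequent last deleted base with 1187 reads (31.7%). Position 19 followed with 402 reads, position 22 with 302, position 20 with 285 and position 23 with 175. These ends follow the drawing of the gap, and with every gap at its leftmost place 3.85% of placed reads ended at 18. The protospacer ends at position 17. As drawn, 2432 of 3690 placed reads (65.9%) had lost all of its 17 bases right of the cut-site, but at the leftmost and rightmost places the share was 33.7% and 16.3%. The PAM was kept in 3420 placed reads (92.7%), and in 92.5% and 92.7% at those places. By library the PAM was kept in 73.7% (experiment 1) to 97.1% of placed reads. The 40 reads with a gap over all columns were not placed and are outside these shares. All of them lost the PAM and the 17 bases, so the share of all long deletion reads that kept the PAM was below 92.7%.

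The right primer starts at position 84, and the left primer lies 113 nt or more to the left of the cut-site. The farthest right end as placed was 88, and 33 reads of 7 deletions, in 8 libraries, were placed with their end inside the right primer. The most frequent of these deletions was placed from 1 to 85 with 15 reads in 6 libraries. A PCR product carries its primers whole, so an end placed inside a primer cannot be taken as an end in the genome. The source of these 33 reads was not tested. The farthest left end was -92, and 0 reads reached the left primer. Deletions that remove a primer site are not amplified, so the farthest ends are only those the amplicon allows. The last exon of the manual gene model ends 83 nt left of the cut-site, and the longest deletion, -92 to -1, would take 10 of its bases. This deletion had 3 reads, 1 in experiment 13 and 2 in experiment 16, and its junction is shown as the longest found in at least 2 libraries.
-92 to -1 (92 nt): agatgcgctcggccagctag
Its ends share 0 bases. In all, 13 reads of 7 deletions, in 7 libraries, reached 77 nt or farther left, beyond the 3′ UTR of the Maker prediction and into its coding sequence.

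**Figure D4:**
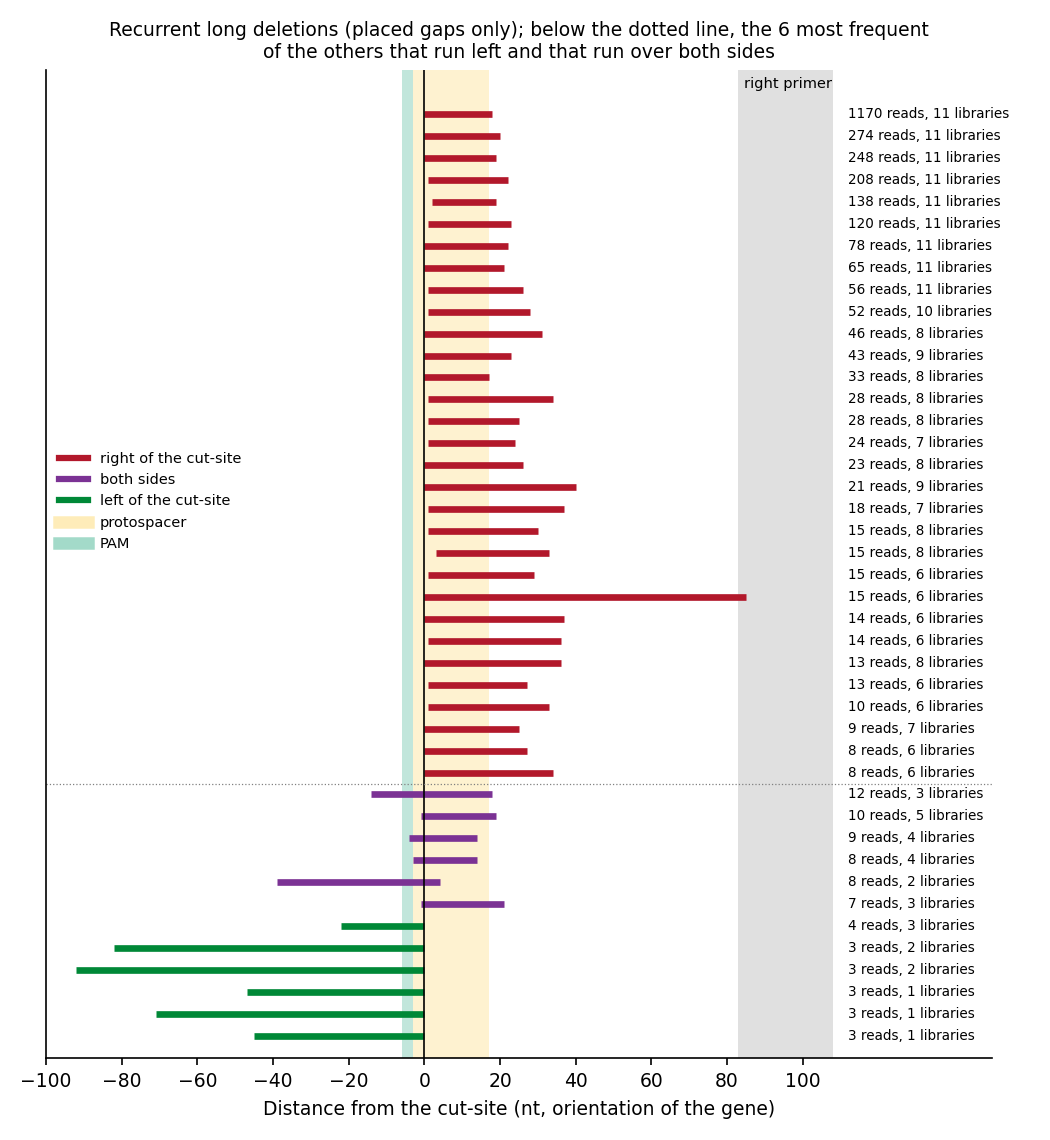
Extent of long deletions with a placed gap (bars; x axis, distance from the cut-site in nt, orientation of the gene) with reads and libraries beside each. As the tables draw the gaps, the 31 deletions found in 6 or more libraries all run right of the cut-site. All but 1 of them end at or before position 40. The deletions over both sides and on the left, below the dotted line, have at most 12 reads.

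A few deletions recurred in every library, and most of the others were found in 1 library. Of the 339 deletions, 9 were found in 11 of 11 libraries and held 62.9% of the long deletion reads. A total of 31 deletions were found in 6 or more libraries, with 75.3% of the reads. At the other end, 191 deletions (56.3%) were found in 1 library only and held 290 reads (7.74%), and 123 had 1 read in all. Of the 832 alleles, 398 had 1 read. A library held between 29 deletions (experiment 9) and 129 (experiment 3), the libraries with the fewest and the most long deletion reads.

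The deletion from 1 to 18 was the most frequent in 11 of 11 libraries. It had 1170 reads, 31.2% of all long deletion reads and about 4 times those of the next deletion. Its share of aligned reads was 0.125% in experiment 1, 0.287% at the median and 0.791% in experiment 3, with a mean of 0.324% ± 0.173 (SD, n = 11). Within the long deletion reads of a library it took up 17.7% in experiment 1, 21.7% in experiment 13 and up to 39.9% in experiment 15, with a mean of 32.2% ± 7.35. Its ends share TGTGG, the 5 bases that span the cut-site from -3 to 2 and recur from 16 to 20.

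The ends of the deletion from 1 to 19 share other bases, the 5 bases GGCCA, which stand from 1 to 5 and again from 20 to 24. It was less frequent, with 248 reads and shares of 0.0225% to 0.139% (median 0.0721%, mean 0.0691% ± 0.0317). In experiment 1 it had 9 reads and in experiment 3 it had 52. The 2 deletions with 5 shared bases together held 1418 reads.

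The deletion from 1 to 20 shares 1 base at its ends and had 274 reads. Its share was 0.0262% in experiment 15, 0.0707% at the median and 0.190% in experiment 3. In experiment 12 it reached 15.5% of the long deletion reads, and in experiment 15 it had 3.29%. Experiments 12 and 15 thus differed in its place behind the 18-nt deletion, since in experiment 15 the deletions from 1 to 19, 2 to 22 and 3 to 19 were all more frequent than it.

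The other 5 named deletions share at most 1 base. The deletion from 2 to 22 had 208 reads and a mean share of 0.0547% ± 0.0360, with the highest count outside experiment 3 in experiment 13 (45 reads). That from 3 to 19 had 138 reads (0.0379% ± 0.0178) and that from 2 to 23 had 120 (0.0322% ± 0.0184). Those from 1 to 22 and from 1 to 21 had 78 and 65 reads, with 1 read each in experiment 1. In this order, each deletion lay within 1 SD of its neighbours. Together the 8 deletions made up 61.4% of the long deletion reads. The ninth deletion found in 11 libraries ran from 2 to 26 with 56 reads.

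**Figure D5:**
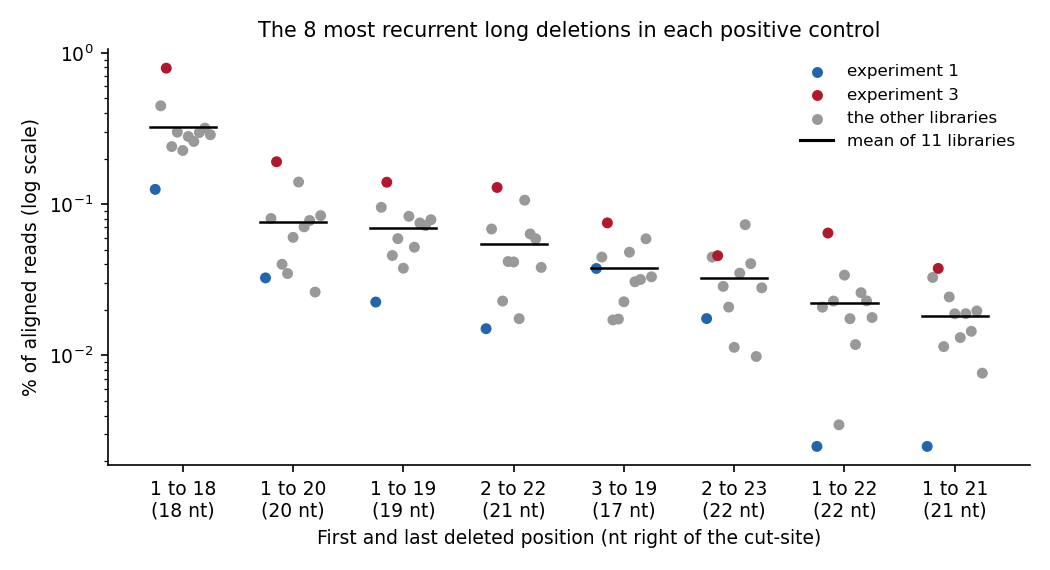
Share of aligned reads (y axis, percent, log scale) of the 8 most recurrent long deletions (x axis, first and last deleted position) in each of the 11 positive controls, with the mean as a line. The deletion from 1 to 18 lies between 0.125% and 0.791%, and experiment 3 is the highest library for 7 of the 8.

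As the tables draw the gaps, deletions over both sides and on the left were spread thinly. Some deletions drawn on the right, that from 1 to 18 among them, run over both sides at their leftmost place and are not counted here. The most frequent over both sides ran from -14 to 18 (32 nt, 3 shared bases, 12 reads in 3 libraries). The next, from -1 to 19, had 10 reads in 5 libraries and 2 shared bases. On the left, the most frequent ran from -22 to -1 with 4 reads in 3 libraries. Because a left-only deletion removes the PAM and the protospacer bases beside it, these 39 reads were among the few that did not keep the PAM.

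Microhomology was scored on the 3690 placed reads as the number of bases over which the gap could slide. Of these reads, 36.3% had 0 shared bases, 18.2% had 1, 5.23% had 2, 1.73% had 3, 0.136% had 4 and 38.4% had 5. The last group is the deletions from 1 to 18 and from 1 to 19. A microhomology of 2 nt or more was found in 46.4% ± 6.01 (SD, n = 11) of long deletion reads and in 10.3% ± 2.81 of short deletion reads. The difference of 36.2 percentage points (SD 7.01) had the same direction in 11 of 11 libraries (exact two-sided sign-flip test, p = 0.000977).

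This difference rested on the pair of deletions with 5 shared bases. Without the deletion from 1 to 18 it was 10.2 points (p = 0.000977), and without both it was 0.471 points (p = 0.768, exact sign-flip test). Above 20 nt it was 3.15 points (p = 0.102). Among distinct deletions, each counted once whatever its reads, 22.01% of 309 long and 7.89% of 152 short deletions had 2 or more shared bases. The difference counted in this way within libraries was 8.15 points (exact sign-flip test, p = 0.00195).

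The sequence around the cut-site allows 548 products of 17 to 40 nt with a gap that touches the cut, and 6.20% of these have 2 or more shared bases. Of the 548, 100 were seen. There are 3 with 4 or more shared bases, and 2 of them were the deletions from 1 to 18 and 1 to 19. The remaining product, of 33 nt starting at -37 and with 4 shared bases, had 0 reads. Not every possible microhomology was therefore seen as a deletion at this depth.

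In the 2-nt window, which counts a deletion only where it overlaps the bases at the cut, 2687 of the 3746 reads were scored as long deletions. The remaining 1059 were not. Of the placed reads, 1047 began at position 2 or farther right and so left the bases at the cut in place. By library, 59.1% (experiment 13) to 78.5% (experiment 16) of the long deletion reads touched the cut-site. The positive minus negative difference in this window was 0.729 points, with the same direction and side of the threshold.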

How the data were processed

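Per the labels and the methods, PCR products of the Mr-cofilin site were sequenced (MiSeq) and the authors used CRISPResso2 (version and parameters not given in the sources used here). The deposited tables give each allele over 40 columns, its read count without normalization and the percent of aligned reads calculated by the authors. They also give the numbers of deleted, inserted and substituted bases counted by the authors. The number of deleted bases reached 92, beyond the 40 columns, so it was taken as the length of the whole deletion. The authors' steps decide which deletions are listed, and gap placement follows their aligner. Alleles of experiments 4 to 7, listed in reverse, had the order of their columns reversed first, without complementing the bases. Positions beyond the columns came from the supplementary gene sequence. Alleles with 2 gaps (14 alleles, 17 reads) and gaps over all columns were not placed. Alleles with 1 read were kept.

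Shares were calculated from the counts, with 95% Wilson intervals and a limit of 3 reads for a count of 0. Libraries were the replicates. The controls were compared by a permutation test with 100000 resamples (seed 1), and measures within a library by exact sign-flip tests. The threshold was 0.05 and relations were adjusted by the Benjamini-Hochberg method. The experiment number pairs the controls, because both used eggs of 1 female. For the share of long deletions, the paired libraries gave Pearson r = -0.0832 (permutation p = 0.708, n = 11) and Spearman rho = 0.162 (permutation p = 0.64). Only 3 of the 11 negative controls held long deletions, so these values cannot show whether the paired libraries deviate together. Alternatives covered length, reads, window, scale, placement and leaving out each experiment. Calculations were tested on simulated data. The named deletions were the 8 found in the most positive controls, the only one of experiment 8, the longest in at least 2 libraries and the most frequent of the negative controls; others named were chosen after their values were seen. The members and lists were chosen with earlier results of these data known. The tools were pandas 2.3.3, SciPy 1.17.1 and NumPy 2.4.6 under Python 3.11.15, with Matplotlib 3.10.9 for the plots.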

Additional observations from a re-analysis of the deposited data

Results flagged for a closer look

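Outside the rule, 7 reads of 5 alleles carried more than 16 deleted and at least 1 inserted base. They were found in 3 of the 11 positive controls and in 0 reads of the negative controls. In experiments 4 to 7, which held 0 long deletions, deletions of 16 nt made up 0.0861% ± 0.0313 of aligned reads (SD, n = 4), with 0 reads in their negative controls, against 0.164% ± 0.0929 (SD, n = 11) in the 11 libraries with long deletions. This difference was not tested.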

How the results depend on the processing

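The difference between positive and negative controls kept its direction under 23 alternatives and its side of the threshold under the 22 with a test, since pooled reads (1.06 points) have none. It was 0.872 to 1.05 percentage points when each experiment was left out, 0.470 above 20 nt and 0.929 with experiment 8 included. With the replicate block it was 1.01 points (p = 0.000977), and the block changed no call. Over all 16 experiments, added after seeing the data, it was 0.697 points (permutation test, p = 6e-05). Apart from these and the alternative with experiment 8, the alternatives used only libraries kept because they held long deletions. That choice limits what their stability shows. Right minus left was 88.4 to 91.7 points without each experiment and 81.1 above 20 nt. It fell to 52.5 with leftmost placement, which was chosen after seeing the data, as were the alternatives without the recurrent deletions. The difference in microhomology was 35.1 to 37.4 points without each experiment, but it missed the threshold above 20 nt (3.15 points, p = 0.102) and without both deletions with 5 shared bases (0.471 points, p = 0.768). With experiment 8 included it could not be calculated, because its allele has 2 gaps. The relation to the indel level turned positive above 20 nt (r = 0.0978) and for the share of all reads (r = 0.448, p = 0.161). It ran from -0.510 (without experiment 3) to 0.0524 (without experiment 2), and none of these passed the threshold. The causes of these changes were not tested, apart from the construction of the alternatives. Of the 832 alleles, 398 rest on 1 read, so the rarer deletions are known only by presence.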
